A study of Mus musculus with 2 samples.

Results

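The Notch genes described here are 3 receptors (Notch1, Notch2 and Notch3), 4 ligands (Dll1, Dll3, Jag1 and Jag2) and 3 target genes (Hes1, Hes5 and Hey1). They were chosen by name, and all 10 were found once each among the 55450 genes counted. The data were single-cell UMI counts (a UMI marks 1 captured RNA molecule) from the cerebral cortex of C57BL/6 mice. There was 1 control library and 1 library after white matter injury (WMI). Per the labels, the mice were 2 weeks old, and the WMI mice had the right common carotid artery ligated on postnatal day 7, followed by 1 h of hypoxia, with sampling on day 14. The paper's methods give earlier days, a longer hypoxia, dissociated cells and several replicates per group, whereas the labels speak of nuclei and list 1 library per group. These differences were not resolved. How many mice were pooled in each library is not given in the labels, and the labels name no transgene.

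With 1 library per group, the spread between mice could not be measured. No test was run, and every interval below is an exact 95% interval that covers counting error only. Levels are UMIs of a gene per 1000000 UMIs of the cells (CPM), and differences between libraries are log2 ratios of these levels, WMI over control. The median depth of the kept cells was 4463 UMIs in the control library (8755 cells) and 5046 in the WMI library (7571 cells). The clusters named OPC-like, pre-OL-like, mature OL-like and astrocyte-like each showed all 10 of their markers. Excitatory neuron-like clusters showed 5 to 8 of 10, and interneuron-like clusters 5 to 7 of 9. These neuronal counts used a looser rule. Glial markers also had to be at least 3-fold over the lower quartile of the clusters. Neuron-like cells without a subtype (2461 control, 730 WMI) and unnamed clusters (1220, 1124) were left out of the comparisons. Striatal projection neuron-like cells numbered 1 in the control and 144 in the WMI library, and neuroblast-like cells 58 and 188. Whether the dissections of the libraries covered the same tissue was not tested, and this holds for every ratio below. The libraries shared 27 barcodes among kept cells. Xist was found in 0.0457% of control and 63.4% of WMI cells, so the control library was essentially from males and the WMI library was mixed. The median mitochondrial share was 0.0602% and 0.449%. The summed level of the 10 microglia markers was higher in the WMI library in every class compared here. In OPC-like cells it was 162 and 506 CPM, and in excitatory neuron-like cells 87.3 and 261 CPM. Neuronal markers were also counted in glial classes. The 10 excitatory neuron markers summed to 2487 and 2132 CPM in excitatory neuron-like cells. They summed to 2032 and 1942 CPM in astrocyte-like, 1032 and 818 CPM in OPC-like and 1214 and 852 CPM in microglia-like cells. The part of such RNA in the levels below was not tested.

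Notch receptors are membrane proteins that are cut when a ligand on a neighbouring cell binds them. The freed part enters the nucleus and joins the DNA-binding protein Rbpj, also called CSL, to switch on Hes and Hey genes, which encode repressors of differentiation. In the oligodendrocyte (OL) lineage the pathway is known for holding oligodendrocyte precursor cells (OPCs) back from maturing, and in astrocytes for supporting glial identity. Dll3 differs from the other ligands because it does not activate receptors on neighbouring cells.

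Among the targets, Hes5 is a classic direct target, so its promoter is shown. RefSeq gave promoters (build GRCm38.p6) for 8 of the 10 members. There was no entry for Hes1 or Hey1, so Hes5 was the only target gene searched. In the 250 bases before each start, the CSL motif GTGGGAA or its complement TTCCCAC was found in 1 of these members, Hes5. This motif stood in 5.42% of 32851 promoter windows of the same length, and at least 2 copies in 0.161% of them. The capitals below mark both copies, which begin at positions −226 and −83 from the start.

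Hes5 promoter, chr4:154960673-154960922, plus strand: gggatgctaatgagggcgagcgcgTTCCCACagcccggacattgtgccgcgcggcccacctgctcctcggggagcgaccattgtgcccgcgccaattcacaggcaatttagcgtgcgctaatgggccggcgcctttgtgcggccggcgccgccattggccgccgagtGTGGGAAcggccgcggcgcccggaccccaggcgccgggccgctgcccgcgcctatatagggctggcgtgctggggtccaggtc

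A match is a description of letters, not a measured binding site. Coordinates of the genes in GENCODE M21 (GRCm38) place Hes5 on chromosome 4 from 154960923 to 154962371, Hes1 on chromosome 16 from 30064384 to 30067796, Notch1 on chromosome 2 from 26457903 to 26516663 and Dll3 on chromosome 7 from 28293553 to 28302238. All 55450 gene identifiers matched that annotation, although the processing notes name mm9. Notch1, Notch3, Dll1 and Hes5 overlap an annotated antisense gene in their exons, and whether the counting used strand is not given in the sources used here. Notch2 overlaps 2 genes on its own strand.

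Among 6 classes, the 3 receptors and the 3 targets stood highest in astrocyte-like cells. There, 3 of the 4 ligands, Dll1, Dll3 and Jag1, stood highest in OPC-like cells. This order was taken over the 3 oligodendrocyte stages, astrocytes, excitatory neurons and interneurons. The highest of the 6 classes was the same in both libraries for all 10 members, while the next class differed for some. Jag2, the remaining ligand, stood highest in interneuron-like cells. Classes outside these 6 were higher in places. Neuroblast-like cells held Jag1 at 12.7 and 14.7 CPM, against 7.84 and 9.97 CPM in OPC-like cells, with intervals that overlapped. They held Dll3 at 6.37 and 4.89 CPM and Dll1 at 0 and 7.34 CPM. Microglia-like cells held Notch2 at 72.6 and 102 CPM, against 90.5 and 99.5 CPM in astrocyte-like cells, with intervals that overlapped. Fibroblast-like cells held Notch2 at 264 and 178 CPM, with intervals above the astrocyte-like ones. Their Notch3, Hes1 and Jag1 levels are given below. Endothelial-like cells (19 control, 15 WMI) held Jag2 at 69.4 and 92.7 CPM (5 and 6 UMIs). They held Hes1 at 55.5 and 92.7 CPM (4 and 6 UMIs) and Jag1 at 13.9 and 139 CPM (1 and 9 UMIs). Neuron-like cells without a subtype held Jag2 at 14.8 and 35.0 CPM. Among the 6 classes, the highest class is firm for some genes only. The intervals of the highest and the next of the 6 were apart in both libraries for Notch1, Notch2, Notch3 and Hes5. They overlapped in both libraries for Dll1, Jag1, Jag2 and Hey1, and in 1 library for Dll3 (control) and Hes1 (WMI).

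**Figure D1:**
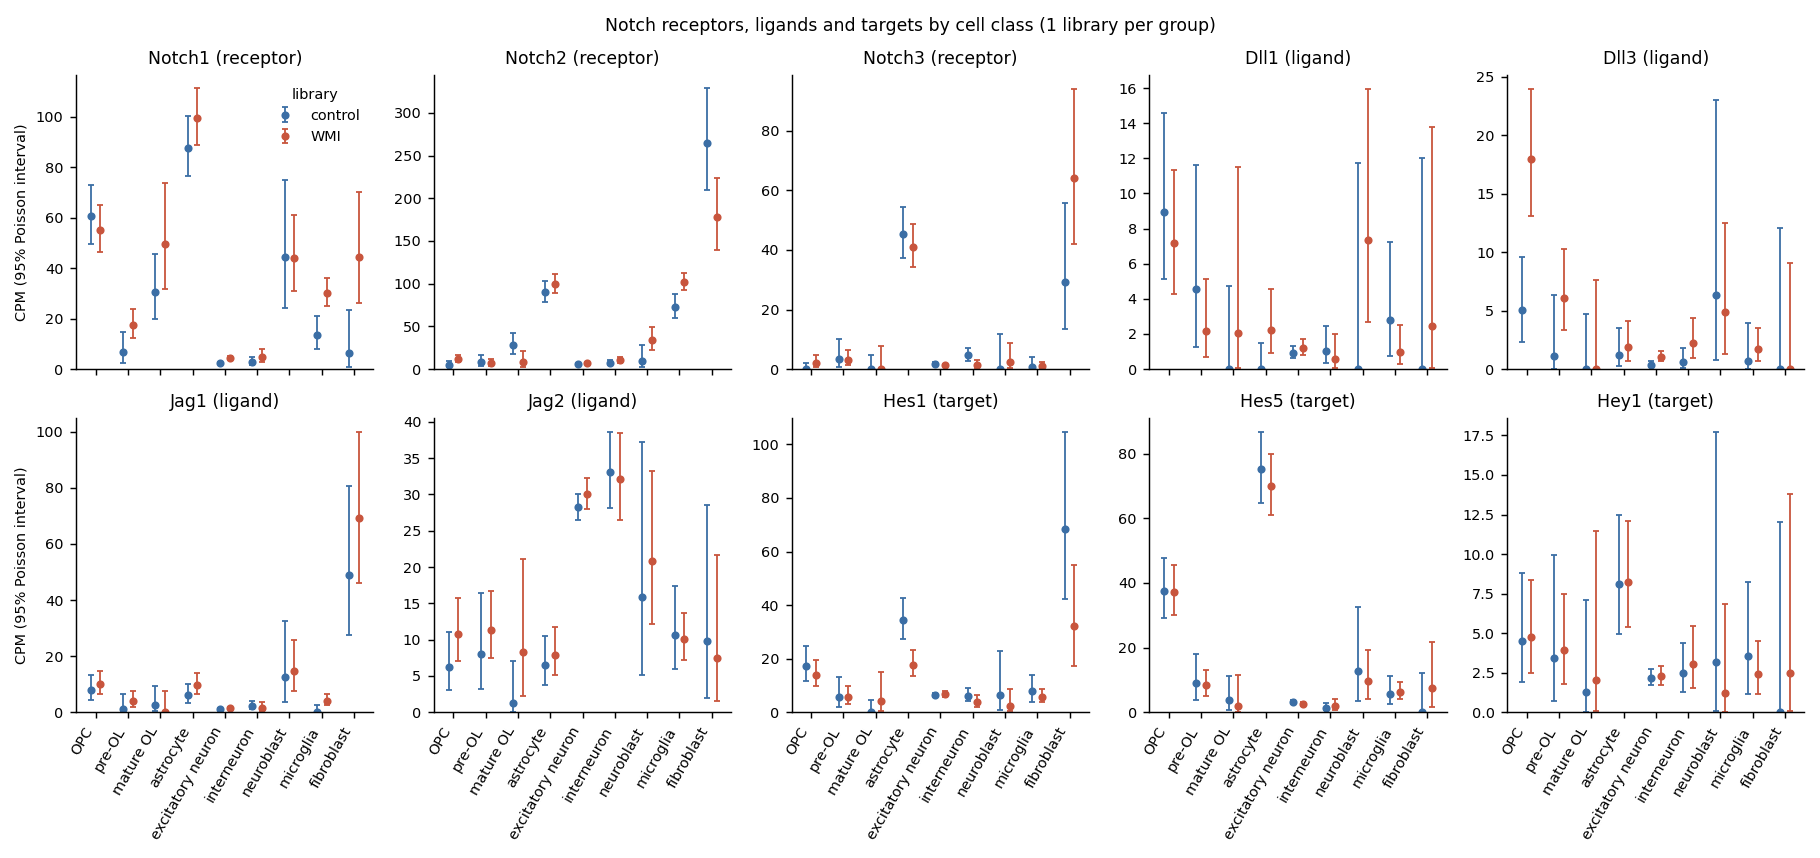
Level of each member (vertical axis, CPM) in 9 cell classes (horizontal axis) in the control and WMI libraries; points are levels and bars 95% Poisson intervals. The receptors, Hes1 and Hes5 are high in astrocytes, Hey1 is low there at 8.08 and 8.24 CPM, and Jag2 is high in neurons, with 28.2 and 30.1 CPM in excitatory neuron-like cells.

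In astrocyte-like cells (477 control, 593 WMI), Notch1 was at 87.7 CPM in the control and 99.5 CPM in the WMI library, with 217 and 314 UMIs. Notch2 was at 90.5 and 99.5 CPM, and Notch3 at 45.3 and 40.9 CPM. The intervals of all 3 ratios included 0. Hes5 was at 75.2 and 70.0 CPM, with 186 and 221 UMIs, and its log2 ratio was −0.10 (−0.39 to 0.19). Hey1 was low, at 8.08 and 8.24 CPM. The ligands were low as well. Jag1 was at 6.06 and 9.82 CPM and Jag2 at 6.47 and 7.92 CPM, while Dll1 had 0 and 7 UMIs and Dll3 3 and 6 UMIs. Hes1, the remaining target, was the exception. It was at 34.4 CPM in the control library (85 UMIs) and at 17.7 CPM in the WMI library (56 UMIs), a log2 ratio of −0.95 (−1.47 to −0.45). Hes1 was the only 1 of 5 members with at least 100 UMIs that passed the 1.5-fold limit, and it was lower. Of all 7460 genes counted in these cells, 5.42% were at least 1.5-fold lower and 12.1% at least 1.5-fold higher. With male cells only, meaning cells with no Xist UMI and at least 1 UMI of a Y-linked gene, the ratio was −1.63.

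Astrocyte-like cells split into 2 sub-clusters at a finer resolution, 1 with more Gfap, the filament gene that rises in reactive astrocytes. This division was looked at after the values were seen, and the members were left out of the clustering features. The Gfap-rich sub-cluster held 17.6% of the control astrocyte-like cells and 41.8% of the WMI ones. Gfap over all astrocyte-like cells was 65.5 CPM in the control and 752 CPM in the WMI library. In the control library the sub-clusters held Gfap at 32.1 and 244 CPM, and in the WMI library at 316 and 1387 CPM. The names lower-Gfap and Gfap-rich therefore hold within a library only, since the lower-Gfap WMI cells held more Gfap than the Gfap-rich control cells.

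**Figure D2:**
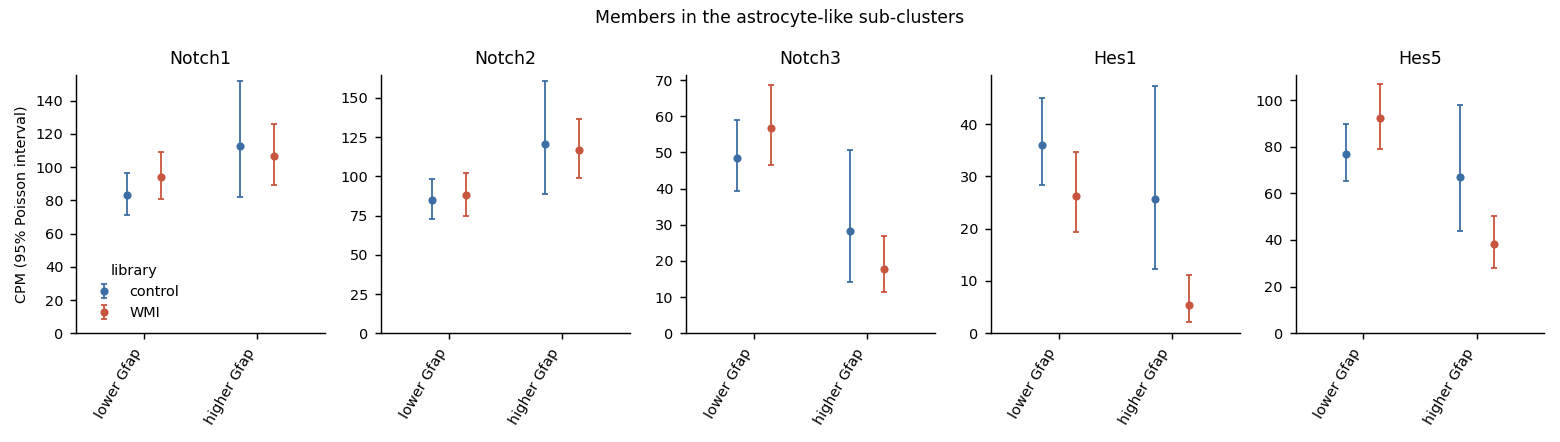
Levels of the receptors and of Hes1 and Hes5 (vertical axis, CPM) in the astrocyte-like sub-clusters with lower and higher Gfap, by library, with 95% Poisson intervals. In the WMI library Notch3, Hes1 and Hes5 sit lower in the Gfap-rich sub-cluster, while Notch1 and Notch2 do not.

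Within the WMI library, Hes1 was at 26.3 CPM in the lower-Gfap cells and 5.44 CPM in the Gfap-rich cells, with 49 and 7 UMIs. Hes5 was at 92.1 and 38.1 CPM, and Notch3 at 56.8 and 17.9 CPM. Notch2, by contrast, was at 87.9 and 117 CPM. In the control library, Hes1 was at 36.0 and 25.7 CPM and Hes5 at 76.8 and 66.8 CPM, differences within counting error with 10 and 26 UMIs in the Gfap-rich cells. Between the libraries, where the sub-clusters also differed in Gfap level, the log2 ratio of Hes1 was −0.45 in the lower-Gfap cells, with an interval that included 0, and −2.24 (−3.87 to −0.70) in the Gfap-rich cells. Hes5 showed 0.26 (−0.06 to 0.58) and −0.81 (−1.52 to −0.07). Whether the sub-clusters differ in these ratios was not tested.

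Along the oligodendrocyte stages, Notch1 was lowest in pre-OL-like cells in both libraries. It was at 60.5 CPM in the control and 55.0 CPM in the WMI OPC-like cells (323 and 511 cells, 108 and 138 UMIs). In pre-OL-like cells, which are differentiating but not yet myelinating and were recognised by Bcas1 and Enpp6, it was at 6.82 and 17.5 CPM (6 and 40 UMIs). In mature OL-like cells it was at 30.7 and 49.5 CPM, with 24 UMIs in each library. The step down from OPC-like to pre-OL-like cells was 8.87-fold in the control and 3.14-fold in the WMI library, and the level was higher again at the mature stage in both. Between OPC-like and mature OL-like cells the log2 difference was −0.98 (−1.68 to −0.33) in the control and −0.15 (−0.84 to 0.48) in the WMI library, so the OPC-like level was the higher beyond counting error in the control library only. The step down to pre-OL-like cells is well outside counting error in both libraries.

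The targets also differed by stage. Hes5 was at 37.5 and 37.1 CPM in OPC-like cells (67 and 93 UMIs), 9.09 and 8.31 CPM in pre-OL-like cells, and 3.84 and 2.06 CPM in mature OL-like cells. Its fold decrease from OPC-like to pre-OL-like cells was 4.13 in the control and 4.46 in the WMI library. Hes1 was at 17.4 and 14.0 CPM in OPC-like cells and at 5.68 and 5.69 CPM in pre-OL-like cells. The latter level was no higher than in excitatory neuron-like cells, its low reference, which held Hes1 unevenly among their clusters (below). In mature OL-like cells Hes1 had 0 and 2 UMIs, so that the higher level of Notch1 at that stage was not seen for Hes5 or Hes1. Hey1 was low at every stage, at most 4.78 CPM.

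**Figure D3:**
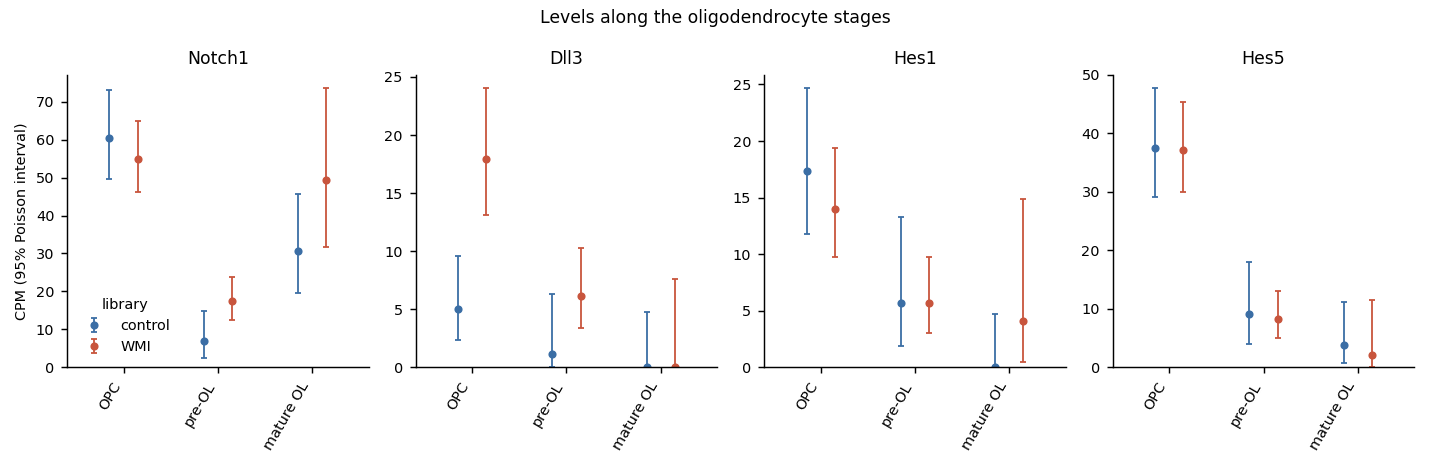
Levels of Notch1, Dll3, Hes1 and Hes5 (vertical axis, CPM) in OPC-like, pre-OL-like and mature OL-like cells, by library, with 95% Poisson intervals. Hes5 is highest in OPC-like cells in both libraries, Notch1 is lowest in pre-OL-like cells, and Dll3 is at 5.04 CPM in control and 17.9 CPM in WMI OPC-like cells.

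Of the ligands, Dll3 was the one whose ratio in OPC-like cells had an interval that left out 0. It was at 5.04 CPM in the control (9 UMIs) and 17.9 CPM in the WMI library (45 UMIs), a log2 ratio of 1.83 (0.78 to 3.05). In pre-OL-like cells it was at 1.14 and 6.12 CPM, with 1 and 14 UMIs. In mature OL-like cells no Dll3 UMI was found in either library, which allows up to 3.84 CPM and 6.19 CPM. In microglia-like cells, which should lack Dll3, it was at 0.705 and 1.71 CPM. The log2 difference of microglia-like over OPC-like cells was −2.84 (−8.29 to 0.01) in the control and −3.39 (−4.78 to −2.23) in the WMI library. The control interval thus included 0. After each cell was thinned to 1000 UMIs, 0.619% of control and 2.15% of WMI OPC-like cells held a Dll3 UMI, against 0% and 0.0877% of microglia-like cells. The OPC-like shares rested on 2 and 11 cells, with intervals that overlapped (0.0751% to 2.22% and 1.08% to 3.82%). Unthinned, the shares of OPC-like cells were 2.79% and 8.02%, at median depths of 5145 and 4432 UMIs. The microglia-like cells were shallower, at 3161 and 3210.5 UMIs. With male cells only, the ratio was 1.24. A higher Dll3 level in the WMI library was not particular to OPC-like cells. The log2 ratio was 1.43 (0.42 to 2.52) in excitatory neuron-like cells. In the other classes the intervals included 0. The ratio was 2.43 (−0.29 to 7.83) in pre-OL-like, 1.83 (−0.23 to 4.37) in interneuron-like and 1.28 (−1.68 to 6.77) in microglia-like cells. It was 0.65 (−1.58 to 3.28) in astrocyte-like cells and −0.38 (−3.18 to 3.09), the other way, in neuroblast-like cells.

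The ratios of the other ligands in OPC-like cells had intervals that included 0. Dll1 was at 8.96 and 7.18 CPM, and Jag1 at 7.84 and 9.97 CPM. Notch3, a receptor, was nearly absent, with 0 and 5 UMIs. Jag2 was at 6.16 and 10.8 CPM, against 10.6 and 10.0 CPM in microglia-like cells, its low reference. Whether these UMIs are background or expression was not tested, and no change was read from them. Dividing OPC-like cells (28 control and 43 WMI) held Notch1 at 67.6 and 77.4 CPM. The other OPC-like cells held 59.7 and 52.3 CPM, within counting error.

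At 100 UMIs over both libraries, 2 members were counted in OPC-like cells, Notch1 and Hes5. Neither passed 1.5-fold, where 4.94% of 6016 genes were higher and 2.48% lower. The log2 ratio of Notch1 was −0.14 (−0.51 to 0.24) and that of Hes5 −0.02 (−0.49 to 0.46). At 20 UMIs, a limit added after the values were seen, 9 members were counted in OPC-like cells and 3 were higher, Notch2, Dll3 and Jag2, with none lower. Among 12257 genes at that limit, 11.7% were higher and 7.44% lower. Notch2 was at 5.04 CPM in the control and 11.6 CPM in the WMI library (9 and 29 UMIs), a log2 ratio of 1.20 (0.08 to 2.46). After thinning, 0.619% of control and 0.391% of WMI OPC-like cells held a Notch2 UMI (2 cells in each), against 0.566% and 0.83% of excitatory neuron-like cells, the low reference for Notch2. That reference itself held Notch2 unevenly among its clusters (below), so it does not set a background level. With 2 such cells in each library, no direction was read from the Notch2 level in OPC-like cells. Microglia-like cells held Notch2 at 72.6 and 102 CPM, and microglia markers were higher in the WMI OPC-like cells (above). Their part in this difference was not tested. With male cells only, the Notch2 ratio was 1.98.

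In pre-OL-like cells (147 control, 431 WMI) no member reached 100 UMIs. At 20 UMIs, 4 were counted and 1, Notch1, was higher, with a log2 ratio of 1.36 (0.11 to 2.89). Of 10923 genes, 15.2% were higher and 9.36% lower. With predicted doublets kept, the ratio was 0.57. After thinning, 1.36% of control (2 cells) and 2.78% of WMI pre-OL-like cells (12 cells) held a Notch1 UMI, with intervals that overlapped. The reference for Notch1, the excitatory neuron-like cells, held 0.3% and 0.738%.

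**Figure D4:**
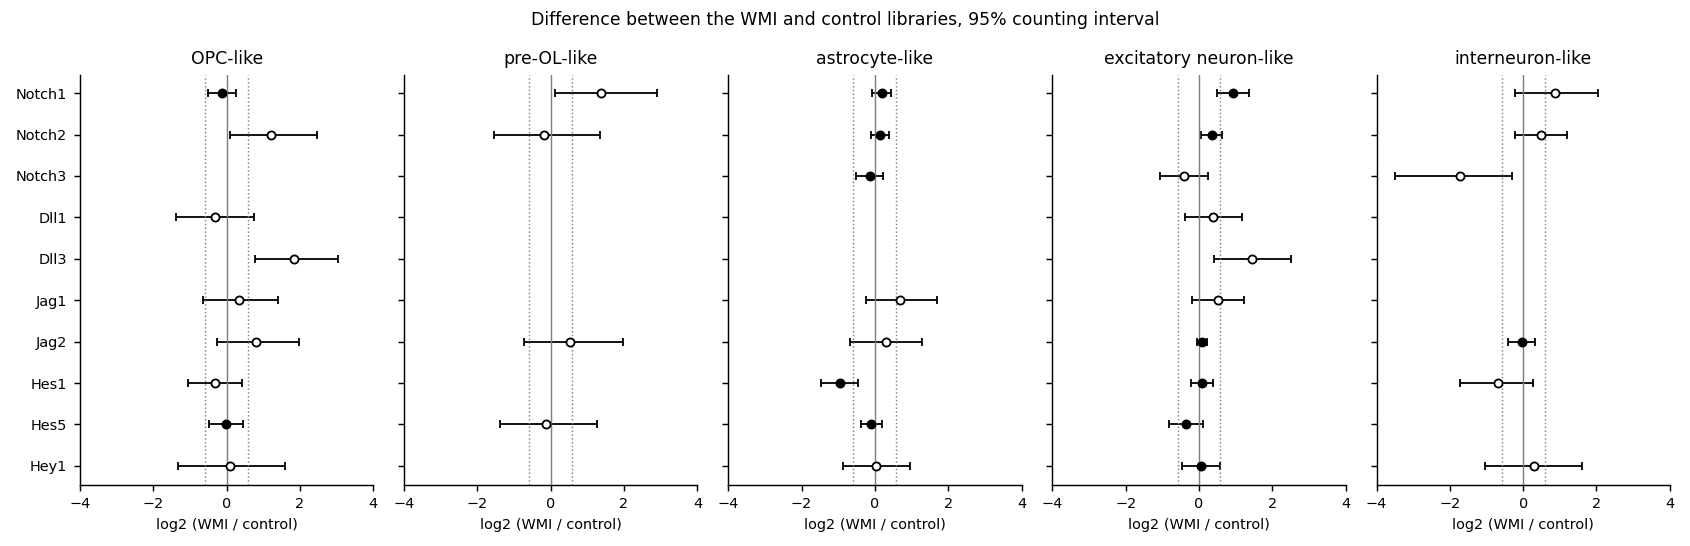
Log2 ratio of WMI over control (horizontal axis) for members with at least 20 UMIs in 5 cell classes, with 95% counting intervals; filled points have at least 100 UMIs, and dotted lines mark 1.5-fold. The filled points past the lines are Hes1 in astrocyte-like cells (−0.95) and Notch1 in excitatory neuron-like cells (0.93).

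In excitatory neuron-like cells (3004 control, 2168 WMI), Jag2 was the ligand with a clear neuronal level. It was at 28.2 CPM in the control and 30.1 CPM in the WMI library (960 and 757 UMIs), a log2 ratio of 0.09 (−0.05 to 0.23). These cells held 66.7% of all Jag2 UMIs of the kept control cells and 55.0% of those of the WMI cells. They were also the class with the most cells and the highest median depth in each library. The Jag2 shares were not set against the share of all UMIs that these cells held. By themselves they therefore do not show that Jag2 was concentrated there. Interneuron-like cells held Jag2 at 33.1 and 32.1 CPM, a log2 ratio of −0.04 (−0.40 to 0.31). Jag2 was the only member counted there, and it did not pass 1.5-fold, where 5.35% of 8282 genes were higher and 3.19% lower. After thinning, 2.8% and 3.27% of excitatory neuron-like cells held a Jag2 UMI, against 0.939% and 0.877% of microglia-like cells.

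Of 6 members counted in excitatory neuron-like cells, 1 passed 1.5-fold. Notch1 was at 2.32 CPM in the control and 4.41 CPM in the WMI library (79 and 111 UMIs), a log2 ratio of 0.93 (0.50 to 1.36). Of 14571 genes, 5.08% were higher and 4.63% lower. These cells were chosen as the low reference for Notch1, and no separate background was measured for them. Whether the Notch1 level in them is background or expression was not settled, and no change was read from it. Keeping predicted doublets gave a ratio of 0.17, and male cells only gave 0.45. Microglia-like cells held Notch1 at 13.4 and 30.1 CPM, which was also higher in the WMI library. Its part in the neuronal value was not tested. The same cells serve as the low reference for Notch2 and Hes1. Notch2 was at 6.00 and 7.63 CPM, Hes5 at 3.09 and 2.42 CPM and Hey1 at 2.17 and 2.26 CPM. Dll3, with 13 and 26 UMIs, was at 0.382 and 1.03 CPM, no higher than in microglia-like cells.

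Hes1 was at 6.41 and 6.79 CPM over all excitatory neuron-like cells, and its level varied among their clusters. Of 12 clusters, the 3 with the highest Hes1 in the control library were also the 3 highest in the WMI library. Together they were at 17.6 and 17.7 CPM, and the other 9 clusters at 4.45 and 4.15 CPM. Those 3 clusters held 40.8% and 50.9% of the Hes1 UMIs of the class. They were led by Rxfp2, Etv1 and Deptor, by Stac, Vat1l and Bcl11b, and by Hsd11b1, Tshz2 and Rora. They were picked from the control values after these were seen, so the control difference is only a description. The thinned shares of other classes are set against the class as a whole, these clusters included.

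**Figure D5:**
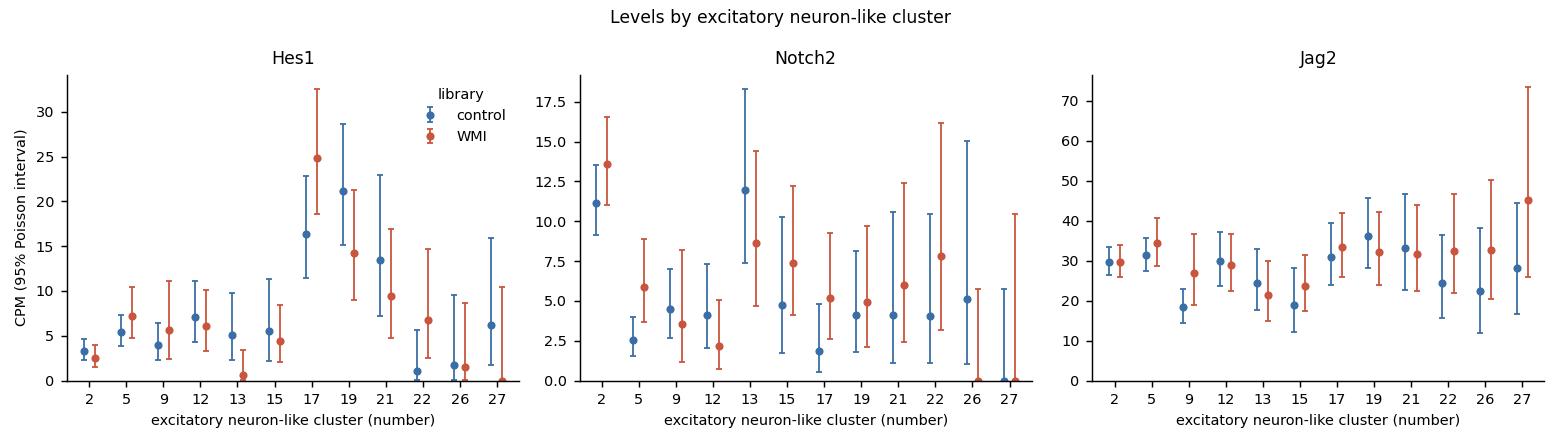
Levels of Hes1, Notch2 and Jag2 (vertical axis, CPM) in the 12 excitatory neuron-like clusters (horizontal axis), by library, with 95% Poisson intervals. Hes1 is high in clusters 17, 19 and 21, and Jag2 is present in all clusters.

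Notch2 differed among the same clusters in another way. The 2 clusters highest in the control library, led by Ccbe1 and Otof and by Tshz2 and Npsr1, were at 11.3 and 12.7 CPM, and the other 10 clusters at 3.41 and 4.90 CPM. For Jag1 the single highest cluster, again the one led by Tshz2 and Npsr1, was at 3.99 and 7.37 CPM, with 7 and 12 UMIs. The other 11 clusters were at 0.868 and 1.06 CPM. For both genes the clusters were picked from the control values, and the number picked differed by gene. The control differences are therefore only a description. The picked clusters were also the highest in the WMI library.

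Notch3 was low in neurons. In interneuron-like cells it was at 4.58 CPM in the control and 1.38 CPM in the WMI library (22 and 5 UMIs), a log2 ratio of −1.73 (−3.48 to −0.29). Outside the neural classes, fibroblast-like cells (48 control, 72 WMI) held Notch2 at 264 and 178 CPM and Jag1 at 48.9 and 69.2 CPM. They held Hes1 at 68.5 and 32.1 CPM and Notch3 at 29.4 and 64.3 CPM. Hes1 was above its astrocyte-like level in both libraries and Notch3 in the WMI library only, with intervals that overlapped. Microglia-like cells held Notch2 at 72.6 and 102 CPM.

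Of 47 further pathway genes in 7 lists (other receptors and ligands, ligand endocytosis, receptor glycosylation, receptor cleavage, the nuclear complex, inhibitors and receptor turnover, and other Hes and Hey genes), 22 were counted in OPC-like cells. One of them, Ncstn, a subunit of the gamma-secretase that cuts Notch, was past 1.5-fold, at 23.0 and 35.9 CPM. None was lower. Over all genes counted in these cells, 4.94% were higher and 2.48% lower. In astrocyte-like cells 28 were counted, 2 were higher (Ncstn and Dtx1) and 2 lower (Lfng and Cntn6), where 12.1% of all genes counted were higher and 5.42% lower. Dtx1, a ubiquitin ligase that binds Notch, was at 30.7 and 49.4 CPM. Lfng, which adds sugars to the receptors, was at 38.0 and 23.8 CPM, and Cntn6, a contactin described as a Notch ligand, at 182 and 118 CPM. The median log2 ratio of the counted list genes was 0.19 in astrocyte-like cells, against 0.10 for all genes counted. In OPC-like cells these were 0.08 and 0.04.

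In excitatory neuron-like cells 37 list genes were counted and 2 were higher, where 5.08% of all genes counted were higher. Maml2, a coactivator of the nuclear complex, was at 46.5 and 70.7 CPM, and Psenen, another gamma-secretase subunit, at 5.14 and 8.06 CPM. In interneuron-like cells 31 were counted and 2 were higher, Maml2 at 73.9 and 118 CPM and Dtx4, a relative of Dtx1, at 13.3 and 24.1 CPM. Of all genes counted there, 5.35% were higher. In pre-OL-like cells 18 were counted and Cntn1, a contactin described as a Notch ligand, was lower, at 1012 and 615 CPM. Of all 4855 genes counted there, 6.53% were higher and 4.45% lower.

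Among 15445 genes, those with levels most like a member's were ranked by Pearson's r of log2(CPM + 1). The 20 points were classes by library of at least 50 cells each, and reached beyond the 5 classes compared between libraries. Each r below is a highest value among that many genes. These r values describe shared patterns over points that share libraries and cell classes. Hes5 was most like Ednrb (r = 0.93), Fam69c and Sox21. Jag2 was most like Mmp24 (r = 0.93), Celsr3 and Mcf2l, and Notch3 most like Vcl (r = 0.90), Aox1 and Slc30a10. Notch1 was most like Phf21a (r = 0.89), Cdkn1b and Rftn2. Notch2 was most like Aff1 (r = 0.92), Gm42819, which overlaps Notch2 on the same strand, and Nck1. Jag1 was most like Gpx7 (r = 0.88), Pkd2 and Dennd2a. Hes1 was most like Stt3b (r = 0.86), Adamts5 and Nr1d2, and Hey1 most like Gm39323 (r = 0.86), Synpo2 and Gphn.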

How the data were processed

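The deposited matrices hold raw UMI counts (whole numbers, no scaling) written by Cell Ranger 6.1.1, per the file headers. The processing notes name mm9 and Seurat. Barcodes below 1000 UMIs or 500 genes, or above a mitochondrial share of 10% (748 control, 241 WMI), and predicted doublets (785, 542) were removed. The libraries held 66470806 and 60568639 UMIs. Cells were integrated and clustered with Seurat 5.3.0 in R 4.3.3 (2000 features without the members, pathway genes and cell-cycle genes, 30 dimensions, resolution 0.8), and clusters were named from marker lists; clusters carrying markers of another class stayed unnamed. Levels were sums of UMIs over cells. Intervals were Poisson for levels, Clopper-Pearson for shares and conditional binomial for ratios, computed with SciPy 1.17.1, and a count of 0 was limited by 3 counts. The ratio and its interval were tested on simulated data. A member was called past 1.5-fold only where both libraries together gave 100 UMIs or more. The named genes are the 10 members, up to 3 pathway genes per class and direction past 1.5-fold, and the 3 genes most like each member with at least 200 UMIs. Members and lists were chosen with earlier results of these data known. One gene of the pathway lists is not reported here.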

Additional observations from a re-analysis of the deposited data

Results flagged for a closer look

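The Notch2 ratio had opposite signs in different cell classes. The log2 ratio was −1.77 in mature OL-like cells, with 22 control and 4 WMI UMIs. It was 1.20 in OPC-like, 0.35 in excitatory neuron-like, 1.84 in neuroblast-like and 0.49 in microglia-like cells. The counting intervals of these 5 values leave out 0, and the difference between the classes was not tested. Excitatory neuron-like cells were chosen as the low reference for Notch2, although they held it unevenly among their clusters. In OPC-like cells the share of thinned cells with Notch2 rested on 2 cells in each library. Neither value was read as a change in expression. In mature OL-like cells 2 of 92 control and 1 of 51 WMI thinned cells held a Notch2 UMI.

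Clusters that could not be named also held members above the level of the named cells of the same library. In the control library, an unnamed cluster of 1161 cells had Hes5 at 43.4 CPM, Jag2 at 50.6 CPM, Notch1 at 21.9 CPM, Hes1 at 18.3 CPM, Hey1 at 7.96 CPM and Dll3 at 2.39 CPM. In the WMI library, an unnamed cluster of 685 cells had Notch2 at 43.6 CPM, Notch1 at 27.5 CPM, Hes5 at 16.1 CPM and Dll1 at 4.59 CPM. Another, of 408 WMI cells with mitochondrial leading genes, had Hes5 at 17.2 CPM and Jag1 at 8.61 CPM. Haemoglobin genes led the clusters of 1161 and 685 cells, whose median depths over both libraries were 1733 and 1814.5 UMIs. In the former, Hbb-bs was at 5.57 CPM in the control cells and 28593 CPM in 31 WMI cells.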

How the results depend on the processing

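No paired analysis was possible because the groups hold 1 library each and share only 1 replicate number. Of 434 recomputed log2 ratios, 426 stayed within the counting interval of the reported one, 8 moved and none reversed a called direction. Many of these intervals span several log2 units, so staying inside them says little. A direction was called only for Hes1 in astrocyte-like and Notch1 in excitatory neuron-like cells. Some other ratios changed sign, such as Hes5 in astrocyte-like cells (−0.28 to 0.26) and Jag1 there (−0.70 to 0.85). Shares moved with the depth of thinning, in 130 of 300 recomputed values.

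The count of members past 1.5-fold changed with the UMI minimum. Without a minimum, over members with UMIs in both libraries, it was 3 of 9 in OPC-like, 4 of 10 in pre-OL-like, 3 of 9 in astrocyte-like, 2 of 10 in excitatory neuron-like and 5 of 10 in interneuron-like cells. Of all genes counted that way, 29.1%, 38.2%, 37.6%, 26.7% and 32.1% were past 1.5-fold in either direction. This leaves out Notch3 in OPC-like cells (0 and 5 UMIs) and Dll1 in astrocyte-like cells (0 and 7 UMIs). Set against a floor of 3 control counts, Dll1 there was 1.83-fold higher, without the counting error of its 7 UMIs. The exact interval of its log2 ratio began at 0.18. The count was also taken at 20 UMIs, a limit added after seeing the data. In the same order of classes it was 3 of 9, 1 of 4, 2 of 8, 2 of 10 and 3 of 6. Of all genes, 19.2%, 24.6%, 27.2%, 18.1% and 18.7% were past 1.5-fold at that limit. With so few members, these counts are not read as a result about them. At 200 UMIs it was 0 in astrocyte-like and 0 in excitatory neuron-like cells, where fewer members were counted. With male cells only it was also 0 in both classes. The male-only Hes1 ratio in astrocyte-like cells, −1.63, was still past 1.5-fold, so the UMI minimum left it out of that count. For Hes1 in astrocyte-like cells the ratio ranged from −1.63 to −0.80 over 10 alternatives, and for Dll3 in OPC-like cells from 1.24 to 1.90. Low counts limit most ligands, since no ligand other than Jag2 reached 100 UMIs in any class compared.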
